A study of Mus musculus with 18 samples.

Results

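Expression of 10 genes used as markers of alveolar type 1 cells was followed across 6 sorted populations of mouse trachea and lung. The genes were *Ager*, *Hopx*, *Aqp5*, *Pdpn*, *Cav1*, *Rtkn2*, *Emp2*, *Clic5*, *Spock2* and *Akap5*. They were taken by symbol, and all 10 were present among the 27179 genes counted. RNA was sequenced from 18 libraries, 3 for each population, and each library came from 1 mouse. The mice were C57BL/6, with no treatment, and the study's methods describe them as males of 8 to 12 weeks. Mice 1 to 3 gave tracheas, from which NGFR-positive cells, the basal stem cells (BSCs), and NGFR-negative cells, the non-basal cells, were sorted. Mice 4 to 6 gave lungs, from which the alveolar cells were taken as EpCAM-positive and CD104-low. In the study's methods, mouse alveolar cells are also negative for CD45 and CD31. Whether the other lung gates were depleted in the same way is not stated there. The 2 airway populations were EpCAM-positive and CD104-positive. The labels describe the CD24hi airway cells as enriched in ciliated cells and the CD24lo airway cells as enriched in club cells. The EpCAM-negative lung cells were the non-epithelial population. No gate was drawn for alveolar type 1 cells, so every value below is an average over a mixed, enriched population. Podoplanin, the protein of *Pdpn*, is used by the study as a basal stem cell marker in the trachea, but the tracheal libraries here were gated on NGFR, and no member was a sorting marker.

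Alveolar type 1 cells are the thin, flat cells that cover most of the gas-exchange surface of the lung, next to the capillary endothelium. The cuboidal type 2 cells beside them make surfactant and can give rise to type 1 cells. The marker genes serve a thin barrier: water passage, caveolae, contacts with the matrix and the actin skeleton. Several are used in other cells too. Podoplanin is found on basal cells and lymphatic endothelium, caveolae are abundant in endothelium and fibroblasts, and aquaporin 5 is the water channel of many glands and airway cells.

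The tracheal libraries held 29317215 to 32993621 counted reads and the lung libraries 9811503 to 13208897. All 10 genes were among the 17989 that passed the filter on low counts and were tested, and each had reads in all 18 libraries. Levels are given as RPKM, the reads of a gene scaled to its length and to the library size, itself adjusted by TMM factors, so that levels can be compared between genes. They are means ± SD with n = 3 mice. The alveolar libraries were dominated by type 2 cell genes. Over 11 type 2 genes, the surfactant protein genes among them, the summed level was 188004 to 210258 RPKM in the alveolar libraries. It was 7709 to 10155 RPKM in airway CD24lo cells, 1751 to 3081 RPKM in airway CD24hi cells and 683 to 1140 RPKM in EpCAM-negative cells. In the tracheal libraries it did not exceed 1029 RPKM. Most of the alveolar sum came from *Sftpc*, with a mean of 156232 RPKM there. The other gates carried the genes of their labels, but not only those. Over 6 basal cell genes the summed level was 4100.1 to 4491 RPKM in BSCs and 1547 RPKM at most elsewhere, and over 6 ciliated cell genes 4985 to 5808 RPKM in airway CD24hi cells and 957 RPKM at most elsewhere. Over 5 club cell genes it was 505078 to 710521 RPKM in airway CD24lo cells, and over 8 fibroblast genes 8298 to 8617 RPKM in EpCAM-negative cells. Most of this club sum came from *Scgb1a1*, with a mean of 598605 RPKM in airway CD24lo cells. In tracheal non-basal cells the club cell genes summed to 239266 to 247144 RPKM and in BSCs to 19948.5 to 30162 RPKM. In airway CD24hi cells they summed to 73391 to 97320 RPKM, above the sum of the ciliated cell genes there.

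The 10 genes did not share 1 order across the populations. The highest mean level was in alveolar cells for 3 of them (*Ager*, *Emp2* and *Akap5*), in BSCs for *Pdpn* and *Cav1*, and in EpCAM-negative cells for *Rtkn2* and *Spock2*. It was in tracheal non-basal cells for *Aqp5*, in airway CD24hi cells for *Hopx* and in airway CD24lo cells for *Clic5*. The lowest mean was in tracheal non-basal cells for 4 genes, in BSCs for 3, and in airway CD24hi, EpCAM-negative and alveolar cells for 1 each. The ratio of the highest to the lowest population mean ran from 3.09 for *Emp2* to 1121 for *Ager*. Ranking the 6 populations within each gene gives 50 pairs of neighbours, and in 16 of them the 3 libraries of one population overlapped those of the next. Scaled as TPM, in which each library has the same total, the highest mean was instead in BSCs for *Aqp5* and *Emp2*, in airway CD24hi cells for *Clic5* and in EpCAM-negative cells for *Akap5*. In bulk samples such as these, fewer cells of a type and less RNA per cell cannot be told apart.

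**Figure D1:**
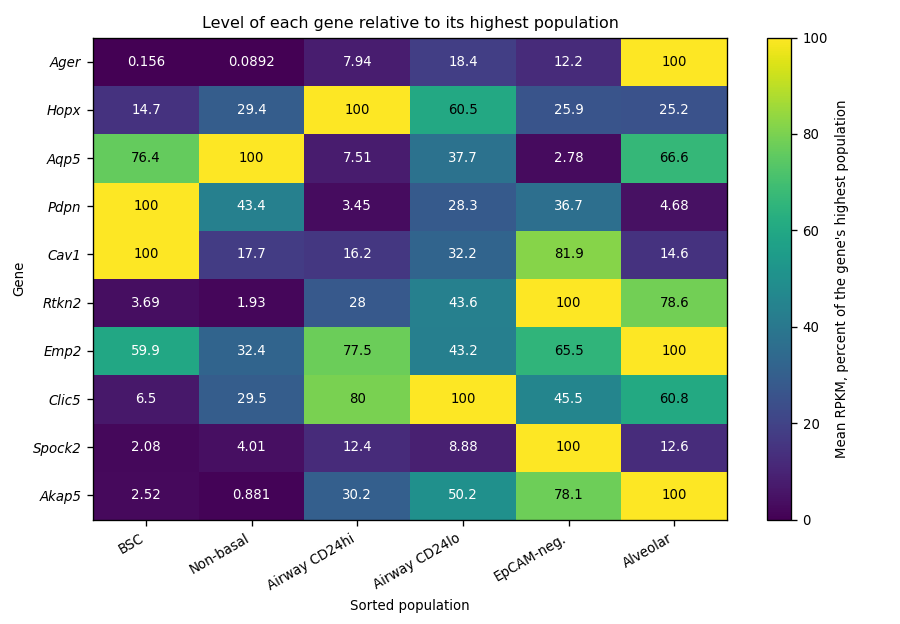
Mean level of each of the 10 genes in each of the 6 populations, as a percentage of the gene's own highest population mean (RPKM, n = 3 mice). The full-scale cell falls in a different column from row to row, in alveolar cells for 3 genes, in BSCs and EpCAM-negative cells for 2 each and in each other population for 1.

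Windows of 250 bases upstream of the start are shown for 3 of the genes, because *Ager* and *Pdpn* were highest in different populations while *Pdpn* and *Cav1* both peaked in BSCs. Over the 18 libraries, the Pearson correlation of log2 levels was -0.67 for *Ager* with *Pdpn* and 0.74 for *Pdpn* with *Cav1*. The points share libraries, mice and gates, and the values are descriptions. The sequences are from RefSeq on GRCm38.p6, 5′ to 3′ on the strand of the gene, and each ends at the base before the annotated start. *Ager* lies at chr17:34597600-34597849 on the plus strand, *Pdpn* at chr4:143299565-143299814 on the minus strand, and *Cav1* at chr6:17306085-17306334 on the plus strand. None of them overlaps an annotated exon. The *Ager* window lies within the span given for the gene below, which begins before the window. Capitals mark letters that match a searched motif on either strand.
Ager: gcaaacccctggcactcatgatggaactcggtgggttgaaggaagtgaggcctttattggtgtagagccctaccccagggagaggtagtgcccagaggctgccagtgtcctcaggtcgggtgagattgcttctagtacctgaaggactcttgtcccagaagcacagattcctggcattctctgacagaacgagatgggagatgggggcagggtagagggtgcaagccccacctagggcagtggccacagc
Pdpn: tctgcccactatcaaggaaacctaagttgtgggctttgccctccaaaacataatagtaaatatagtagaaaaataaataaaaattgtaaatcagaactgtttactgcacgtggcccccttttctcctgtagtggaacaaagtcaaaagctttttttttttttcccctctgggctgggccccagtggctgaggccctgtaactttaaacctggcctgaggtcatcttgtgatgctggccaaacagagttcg
Cav1: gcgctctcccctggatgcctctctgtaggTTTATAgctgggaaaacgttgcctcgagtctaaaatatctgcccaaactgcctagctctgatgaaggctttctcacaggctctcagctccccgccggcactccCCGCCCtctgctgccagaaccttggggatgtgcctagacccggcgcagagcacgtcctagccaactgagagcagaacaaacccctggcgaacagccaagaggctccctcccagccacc
In the *Cav1* window the capitals mark TATA box letters, 221 bases before the start and on the opposite strand, and GC box letters, 118 bases before it and also on the opposite strand. Neither the *Ager* nor the *Pdpn* window holds a searched motif.

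RefSeq windows were at hand for 9 of the 10 genes, 11 windows in all, and for 32851 windows over all genes. *Hopx* and *Cav1* gave more windows than the other genes. Not all windows are free of exons: annotated exons cover 246 bases of the *Aqp5* window and all 250 of a *Hopx* window. The *Clic5* and *Akap5* windows lie within the spans given for these genes below. On both strands 5 motifs were searched. The TEAD letters GGAATG were in 0 of the 11 windows and in 12.6% of all windows. The NKX2-1 letters CAAGTG were in 0 of 11 and in 11.6% of all windows, and the AP-1 letters TGANTCA in 0 of 11 and in 6.75% of all windows. The GC box letters GGGCGG were in 5 of 11 and in 32.7% of all windows, and the TATA letters TATAAA in 1 of 11 and in 12.4% of all windows. None of these motifs overlapped another in the printed windows. A missing match says only that these letters are not in these windows. G and C made up 57.6% of the *Ager* window, 43.2% of the *Pdpn* window and 59.6% of the *Cav1* window, against a median of 52.4% over all windows.

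*Ager* encodes the receptor for advanced glycation end products, which in the lung sits on the basal face of type 1 cells. The gene (Entrez 11596) lies on chromosome 17 from 34597460 to 34600937 on the plus strand of GRCm38. It was the gene with the widest range. The alveolar libraries of mice 4, 5 and 6 held 1136, 1135 and 1148 RPKM. The airway CD24lo libraries of the same mice held 237, 223 and 171 RPKM, and the airway CD24hi libraries 145, 67.3 and 58.9 RPKM. All 3 alveolar libraries stood above every other library. The EpCAM-negative libraries held 165, 121 and 132 RPKM, a range that the airway CD24hi libraries overlapped through mouse 4. In BSCs *Ager* was at 1.56, 1.96 and 1.81 RPKM and in tracheal non-basal cells at 1.02, 1.10 and 0.927 RPKM. These tracheal levels rested on 75 to 97 reads in BSCs and 39 to 43 reads in non-basal cells, and the 2 populations did not overlap.

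*Pdpn* encodes podoplanin (T1α), a mucin-like membrane glycoprotein, and lies on the minus strand of chromosome 4 from 143267409 to 143299564 (Entrez 14726). It was highest in the trachea. BSCs of mice 1, 2 and 3 held 137, 142 and 142 RPKM, and the non-basal cells of the same tracheas 57.5, 60.7 and 64.6 RPKM. EpCAM-negative lung cells followed with 55.1, 50.2 and 49.4 RPKM, and airway CD24lo cells with 36.8, 44.7 and 37.7 RPKM. These 4 populations did not overlap in that order. The alveolar libraries held only 6.53, 8.43 and 4.79 RPKM, and the airway CD24hi libraries 5.97, 4.36 and 4.22 RPKM. These last 2 populations overlapped each other and lay below all other libraries.

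*Aqp5* encodes aquaporin 5, the water channel of the apical membrane of type 1 cells and of serous and airway cells. It lies on the plus strand of chromosome 15 from 99591028 to 99594829 (Entrez 11830). Tracheal non-basal cells held 591, 493 and 510 RPKM in mice 1, 2 and 3, and BSCs of the same mice 431, 401 and 386 RPKM. The alveolar libraries held 365, 339 and 357 RPKM. Both tracheal populations therefore stood above the alveolar one, with no overlap between any 2 of the 3. Airway CD24lo cells held 180, 236 and 184 RPKM and airway CD24hi cells 52.9, 33.2 and 33.5 RPKM. EpCAM-negative cells were lowest, with 15.7, 13.9 and 14.7 RPKM, and again no 2 populations overlapped. Of the 10 genes, *Aqp5* and *Clic5* were those with no overlap between any neighbours in the order.

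*Cav1* encodes caveolin-1, the coat protein of caveolae, and lies on the plus strand of chromosome 6 from 17306335 to 17341328 (Entrez 12389). BSCs held 238, 254 and 254 RPKM and EpCAM-negative lung cells 217, 201 and 192 RPKM. Airway CD24lo cells held 123 RPKM in mouse 4 against 61.8 and 54.999 RPKM in mice 5 and 6, so that 1 library set their mean of 80.0 ± 37.6 RPKM. Tracheal non-basal cells held 50.5, 37.3 and 44.2 RPKM. Airway CD24hi cells held 53.0, 40.4 and 27.2 RPKM, and the alveolar libraries 29.2, 48.2 and 31.7 RPKM. The 3 lowest populations overlapped one another, and the alveolar mean, 36.4 ± 10.3 RPKM, was the lowest of the 6.

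The other components of caveolae were examined over 8 genes chosen for their function. *Cav2*, which forms oligomers with *Cav1*, and *Cavin1*, the coat adaptor that caveolae need, were highest in BSCs, at 120.8 ± 3.70 and 202 ± 2.55 RPKM. *Cavin1* was almost as high in EpCAM-negative cells, at 198 ± 1.89 RPKM. In alveolar cells *Cav2* was at 38.1 ± 6.39 RPKM and *Cavin1* at 50.7 ± 1.90 RPKM, the lowest means of both genes over the 6 populations. *Cavin3* and *Ehd2*, an ATPase at the caveolar neck, were highest in EpCAM-negative cells, at 125.8 ± 5.32 and 122 ± 3.46 RPKM. *Cavin2* was highest in airway CD24lo cells, at 89.2 ± 7.89 RPKM. *Pacsin2*, a membrane-bending protein, was highest in alveolar cells, at 39.2 ± 0.946 RPKM, and was higher there than in airway CD24lo cells (log2 fold change 0.90, adjusted p = 2.94e-08), airway CD24hi cells (0.49, adjusted p = 2.4e-05) and EpCAM-negative cells (0.49, adjusted p = 2.56e-05). *Cavin4*, a muscle form, was highest in tracheal non-basal cells, at 4.198 ± 0.0656 RPKM. *Cav3*, the muscle caveolin, had 0 reads in the 6 tracheal libraries. There 3 reads in a library would have stood for at most 0.0737 RPKM in BSCs and 0.0911 RPKM in non-basal cells. *Cav3* was at 10.5 ± 0.804 RPKM in EpCAM-negative cells. The caveolar genes thus peaked in different populations, as the 10 type 1 genes did.

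*Emp2* and *Clic5* encode membrane proteins. *Emp2*, a tetraspan protein, lies on the minus strand of chromosome 16 from 10281749 to 10313968 (Entrez 13731) and had the narrowest range. The alveolar libraries held 192, 192 and 208 RPKM and the airway CD24hi libraries 166, 144 and 149.5 RPKM. EpCAM-negative cells were at 129 ± 8.79 RPKM and BSCs at 118 ± 1.89 RPKM, with overlap. Airway CD24lo cells, at 116, 73.7 and 66.3 RPKM, overlapped tracheal non-basal cells, at 68.2, 61.2 and 62.3 RPKM, and the library of mouse 4 was again the highest airway CD24lo one.

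*Clic5*, a chloride intracellular channel protein that binds ezrin at the cell cortex, lies on the plus strand of chromosome 17 from 44134762 to 44280169 (Entrez 224796). Airway CD24lo cells held 41.3, 39.0 and 35.9 RPKM, airway CD24hi cells 30.1, 29.999 and 32.9 RPKM and alveolar cells 20.4, 26.4 and 23.9 RPKM. EpCAM-negative cells were at 17.6 ± 2.23 RPKM and tracheal non-basal cells at 11.4 ± 1.12 RPKM. BSCs were lowest, at 2.64, 2.53 and 2.39 RPKM. Thus every lung library stood above every tracheal one.

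*Spock2* encodes testican-2, a secreted proteoglycan of the extracellular matrix. It lies on the plus strand of chromosome 10 from 60106257 to 60135198 (Entrez 94214). EpCAM-negative cells held 22.5, 22.3 and 25.3 RPKM. The alveolar libraries held 3.02, 3.43 and 2.40 RPKM, the airway CD24hi libraries 3.70, 2.86 and 2.17 RPKM and the airway CD24lo libraries 2.77, 1.63 and 1.82 RPKM. The 3 epithelial populations of the lung overlapped, far below the EpCAM-negative cells. Tracheal non-basal cells were at 0.937 ± 0.0658 RPKM and BSCs at 0.486 ± 0.0501 RPKM.

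*Hopx* encodes a homeodomain-only protein that acts on transcription without binding DNA itself. It lies on the minus strand of chromosome 5 from 77086986 to 77115123 (Entrez 74318). The antisense gene *Hopxos* covers 27.2% of its exonic bases, and reads of the pair cannot be told apart because the strand setting of the counting is not given in the sources used here. The highest levels were in airway CD24hi cells, with 173, 150.1 and 141 RPKM, and then in airway CD24lo cells, with 109, 84.4 and 87.3 RPKM. Tracheal non-basal cells held 51.3, 45.6 and 39.5 RPKM, EpCAM-negative cells 44.7, 37.0 and 38.7 RPKM and alveolar cells 34.7, 48.7 and 33.7 RPKM. These last 3 populations overlapped in the order of their means. BSCs were lowest, at 21.9, 25.9 and 20.7 RPKM. No alveolar library reached any airway library.

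*Rtkn2*, a rhotekin family protein, and *Akap5*, which anchors protein kinase A and other enzymes at the membrane, had low levels throughout. *Rtkn2* lies on the plus strand of chromosome 10 from 67979566 to 68058429 (Entrez 170799), and 3.89% of its exonic bases lie antisense to *Gm16212*. *Akap5* lies on the plus strand of chromosome 12 from 76324617 to 76334517 (Entrez 238276). *Rtkn2* was at 4.23, 3.61 and 3.78 RPKM in EpCAM-negative cells and at 2.53, 3.77 and 2.82 RPKM in alveolar cells. Airway CD24lo cells held 2.74, 1.10 and 1.23 RPKM and airway CD24hi cells 1.804, 0.791 and 0.660 RPKM. The 4 lung populations overlapped from neighbour to neighbour, and mouse 4 was the highest library in both airway gates. In the trachea *Rtkn2* had 13 to 25 reads in a BSC library and 8 or 9 reads in a non-basal library.

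*Akap5* was at 4.61, 6.55 and 5.03 RPKM in alveolar cells and at 4.78, 3.68 and 4.18 RPKM in EpCAM-negative cells. Airway CD24lo cells held 4.63 RPKM in mouse 4 against 1.57 and 1.93 RPKM in mice 5 and 6, and airway CD24hi cells 2.45 RPKM against 1.29 and 1.15 RPKM. The neighbouring lung populations overlapped here too. The tracheal levels rested on 22 to 47 reads in BSCs and 4 to 14 reads in non-basal cells, means of 0.136 and 0.0475 RPKM.

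**Figure D2:**
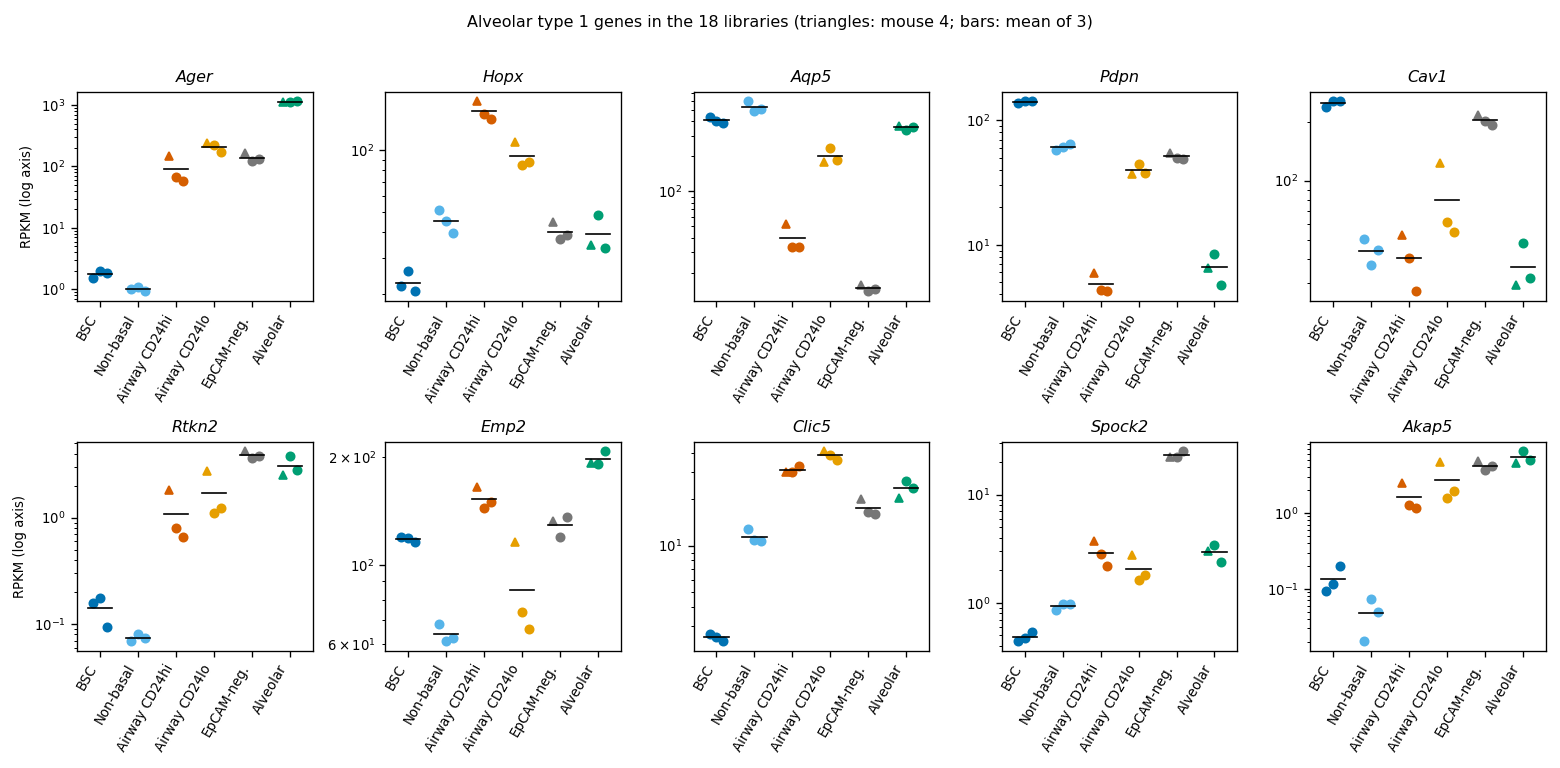
Level of each of the 10 genes in each of the 18 libraries (RPKM, log axis), 1 panel for a gene and 1 column of 3 points for a population, with the mean as a bar and triangles for mouse 4. *Ager* spans the widest range, from about 1 RPKM in tracheal non-basal cells to 1148 RPKM in alveolar cells, and *Emp2* the narrowest.

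In all, 6 comparisons were made in 1 fit of all libraries, with edgeR's quasi-likelihood test and Benjamini-Hochberg adjustment over the 17989 genes. A gene is called at an adjusted p under 0.05. The alveolar libraries enter 4 of the comparisons, BSCs 2 and each airway population 2, so the comparisons are not independent of one another. Over all 60 tests of the 10 genes, 48 were called, against 56.9% of the tests of all genes. *Pdpn*, *Ager*, *Emp2* and *Clic5*, 4 of the 10, were called in all 6 comparisons, against 9.66% of all genes. Each of these 4 had a call that was lost when some single libraries were left out, as given below.

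BSCs were compared with the non-basal cells of the same tracheas to see which of the genes mark the basal gate. In BSCs 4 genes were higher, *Ager*, *Pdpn*, *Cav1* and *Emp2*, and 4 were lower, *Hopx*, *Aqp5*, *Clic5* and *Spock2*. Over all genes, 21.9% were called higher and 26.2% lower. *Cav1* was 5.65-fold higher (log2 fold change 2.50, SE 0.28, adjusted p = 9.77e-07) and *Pdpn* 2.31-fold (log2 fold change 1.21, SE 0.14, adjusted p = 1.33e-06). *Clic5* was 4.54-fold lower (log2 fold change -2.18, SE 0.12, adjusted p = 1.28e-10). *Hopx* had a log2 fold change of -0.996, *Spock2* of -0.95 and *Emp2* of 0.89. For none of the 10 genes did the 3 BSC libraries overlap the 3 non-basal ones, which held for 64.9% of all genes tested. The median log2 fold change was 0.85 over the 10 genes and -0.02 over all genes tested. *Akap5* (1.502, SE 0.62, adjusted p = 0.0566) and *Rtkn2* (0.92, SE 0.54, adjusted p = 0.179) were not called. The calls of *Ager* (0.80, adjusted p = 0.0489) and *Aqp5* (-0.39, adjusted p = 0.0413) were not firm. *Ager* was no longer called when any 1 of the 6 libraries was left out (0.0534 to 0.122) or with limma voom (0.284). *Aqp5* was lost without any library but the non-basal one of mouse 2 (0.0531 to 0.157) and on library size alone (0.837), where 5 genes were called higher and 3 lower. *Akap5* was called with the mouse as a block (adjusted p = 0.0383), with DESeq2 (0.00469) and without the BSC library of mouse 1 (0.0468).

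Of the caveolar genes, 6 of 8 were higher in BSCs than in non-basal cells, 1 was lower and 1 was not called, against 21.9% of all genes higher and 26.2% lower. The 8 had a median log2 fold change of 0.97. *Ehd2* rose most (log2 fold change 3.07, adjusted p = 1.75e-07), followed by *Cavin3* (2.24, adjusted p = 6.59e-06). *Cav2* (1.23, adjusted p = 0.00178) and *Cavin1* (1.21, adjusted p = 2.38e-06) rose by similar amounts. *Cavin4* was lower (-1.77, adjusted p = 1.78e-07), and *Cav3* was the gene with no reads. *Cavin2* (0.74, adjusted p = 7.98e-05) and *Pacsin2* (0.53, adjusted p = 1.65e-05) were higher by less.

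BSCs and alveolar cells differ in organ, in mice and in the way the tissue was dissociated, and these cannot be told apart from the cell population. In BSCs, 2 of the 10 genes were higher, 7 were lower and 1 was not called, against 30.5% of all genes called higher and 35.6% lower. *Pdpn* was higher in BSCs (log2 fold change 4.41, SE 0.16, adjusted p = 1.57e-13), and so was *Cav1* (2.77, SE 0.28, adjusted p = 1.32e-07). These were the same genes whose highest mean was in BSCs. *Ager* was 639.9-fold lower (log2 fold change -9.32, SE 0.35, adjusted p = 1.4e-13). *Akap5* (-5.30), *Rtkn2* (-4.40), *Clic5* (-3.22) and *Spock2* (-2.60) were also lower, with adjusted p of at most 1.96e-08. *Aqp5* was not called (0.20, SE 0.15, adjusted p = 0.255), although the 2 groups of libraries did not overlap. None of the 10 genes overlapped between the groups, as was the case for 74.7% of all genes. The median log2 fold change was -1.69 over the 10 genes and -0.09 over all genes. On library size alone 3 genes were higher and 5 lower: *Hopx* (-0.78, adjusted p = 0.000219, against 0.0508) and *Emp2* (-0.74, adjusted p = 0.000293, against 0.0867) lost their calls, and *Aqp5* gained one (0.00117). *Aqp5* was also called in a fit of the 6 libraries compared (0.26, adjusted p = 0.00867).

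Alveolar cells were compared with the other lung populations to see where the genes stood highest within the lung. Against airway CD24lo cells 5 genes were higher and 4 lower, and 24.2% of all genes were called in each direction. *Ager* was 5.43-fold higher (log2 fold change 2.44, SE 0.25, adjusted p = 2.48e-07). *Emp2* (1.21, SE 0.15) and *Aqp5* (0.82, SE 0.15) were higher with adjusted p of 2.7e-06 and 0.000205. *Akap5* (0.98, adjusted p = 0.0245) and *Rtkn2* (0.83, adjusted p = 0.0485) were also called. The lower genes were *Pdpn* (-2.59, SE 0.16, adjusted p = 3.23e-10), *Hopx* (-1.26, SE 0.15), *Cav1* (-1.14, SE 0.27) and *Clic5* (-0.72, SE 0.11). For 7 of the 10 the libraries did not overlap, against 55.7% of all genes. The median log2 fold change was 0.66 over the 10 genes and -0.03 over all genes. *Rtkn2* and *Akap5* were not firm: *Rtkn2* was lost without the airway CD24lo library of mouse 5 or 6 or any 1 alveolar library (0.0502 to 0.202), and *Akap5* without the airway CD24lo library of mouse 5 or 6 or the alveolar library of mouse 5 (0.0937 to 0.122). *Spock2* (0.50, adjusted p = 0.0517) was called with the mouse as a block (0.51, adjusted p = 0.0433), without the airway CD24lo library of mouse 4 (0.00499) and without the alveolar library of mouse 6 (0.0335).

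Against airway CD24hi cells 6 genes were higher in alveolar cells and 2 were lower, and 31.4% of all genes were called higher and 30.5% lower. *Ager* (log2 fold change 3.65, SE 0.26, adjusted p = 1.07e-09) and *Aqp5* (3.15, SE 0.16, adjusted p = 1.69e-11) had the largest differences. *Akap5* (1.73, adjusted p = 0.000336) and *Rtkn2* (1.48, adjusted p = 0.00103) were higher, *Hopx* (-1.99, SE 0.15, adjusted p = 3.07e-09) and *Clic5* (-0.40, SE 0.11, adjusted p = 0.00444) lower. The libraries of 7 of the 10 genes did not overlap, against 63.9% of all genes. *Cav1* (-0.14, SE 0.27, adjusted p = 0.665) and *Spock2* (0.02, SE 0.19, adjusted p = 0.94) were not called, and their signs changed with the scaling or with single libraries left out. *Pdpn* (0.44, adjusted p = 0.0299) was lost without the airway CD24hi library of mouse 5 or 6 or the alveolar one of mouse 4 or 5 (0.0574 to 0.248), and *Emp2* (0.37, adjusted p = 0.0398) without any of those or the alveolar one of mouse 6 (0.0602 to 0.13). On library size alone *Pdpn* (0.524) and *Emp2* (0.82) were not called. The median log2 fold change was 0.41 over the 10 genes and 0.01 over all genes.

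Against EpCAM-negative cells 4 genes were higher in alveolar cells, 3 were lower and 3 were not called, and 29.2% of all genes were called higher and 32.7% lower. *Aqp5* (log2 fold change 4.58, SE 0.18, adjusted p = 2.62e-13) and *Ager* (3.03, SE 0.25, adjusted p = 9.34e-09) were the most strongly higher. *Emp2* (0.61, adjusted p = 0.0017) and *Clic5* (0.42, adjusted p = 0.00304) were higher by less. *Spock2* (-2.98, SE 0.19, adjusted p = 1.79e-10), *Pdpn* (-2.96, SE 0.16, adjusted p = 2.02e-11) and *Cav1* (-2.48, SE 0.28, adjusted p = 4.84e-07) were lower. The differences of *Hopx* (-0.04, adjusted p = 0.846), *Rtkn2* (-0.35, adjusted p = 0.35) and *Akap5* (0.36, adjusted p = 0.366) did not pass the test. The libraries of 7 of the 10 genes did not overlap, against 72% of all genes. The median log2 fold change was 0.16 over the 10 genes and -0.01 over all genes. The call of *Clic5* was lost on library size alone (0.0971).

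The 2 airway gates of the same lungs were compared as the CD24hi against the CD24lo population. In CD24hi cells *Emp2* (log2 fold change 0.84, SE 0.15, adjusted p = 0.000111) and *Hopx* (0.72, SE 0.15, adjusted p = 0.000461) were higher. Lower were 5 genes, and over all genes 27.8% were called higher and 27.2% lower. *Pdpn* (-3.03, SE 0.16, adjusted p = 3.24e-10) and *Aqp5* (-2.33, SE 0.16, adjusted p = 2.42e-09) had the largest differences, and their libraries did not overlap. *Ager* (-1.21, adjusted p = 0.000347), *Cav1* (-0.99, adjusted p = 0.00465) and *Clic5* (-0.32, adjusted p = 0.0187) were also lower. *Akap5* (-0.74, adjusted p = 0.089), *Rtkn2* (-0.65, adjusted p = 0.134) and *Spock2* (0.48, adjusted p = 0.0523) were not called. The libraries of 7 of the 10 genes did not overlap, against 53.9% of all genes. Over the 10 genes the median log2 fold change was -0.70 and -0.06 over all genes. Single libraries decided several of these calls. *Cav1* was lost without the airway CD24lo library of mouse 4 (-0.54, adjusted p = 0.0517), *Clic5* without that library or the CD24hi library of mouse 5 (0.0648 and 0.0587), and without the CD24hi library of mouse 4 *Rtkn2* (-1.23, adjusted p = 0.00548) and *Akap5* (-1.16, adjusted p = 0.0134) were called. *Akap5* was also called without the CD24lo library of mouse 5 (0.024). *Spock2* was called without the CD24lo library of mouse 4 (0.00456) or the CD24hi library of mouse 6 (0.0099), and with the mouse as a block (0.48, adjusted p = 0.047). On library size alone 3 genes were higher and 4 lower, with *Spock2* gained (0.00597) and *Clic5* lost (0.829).

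**Figure D3:**
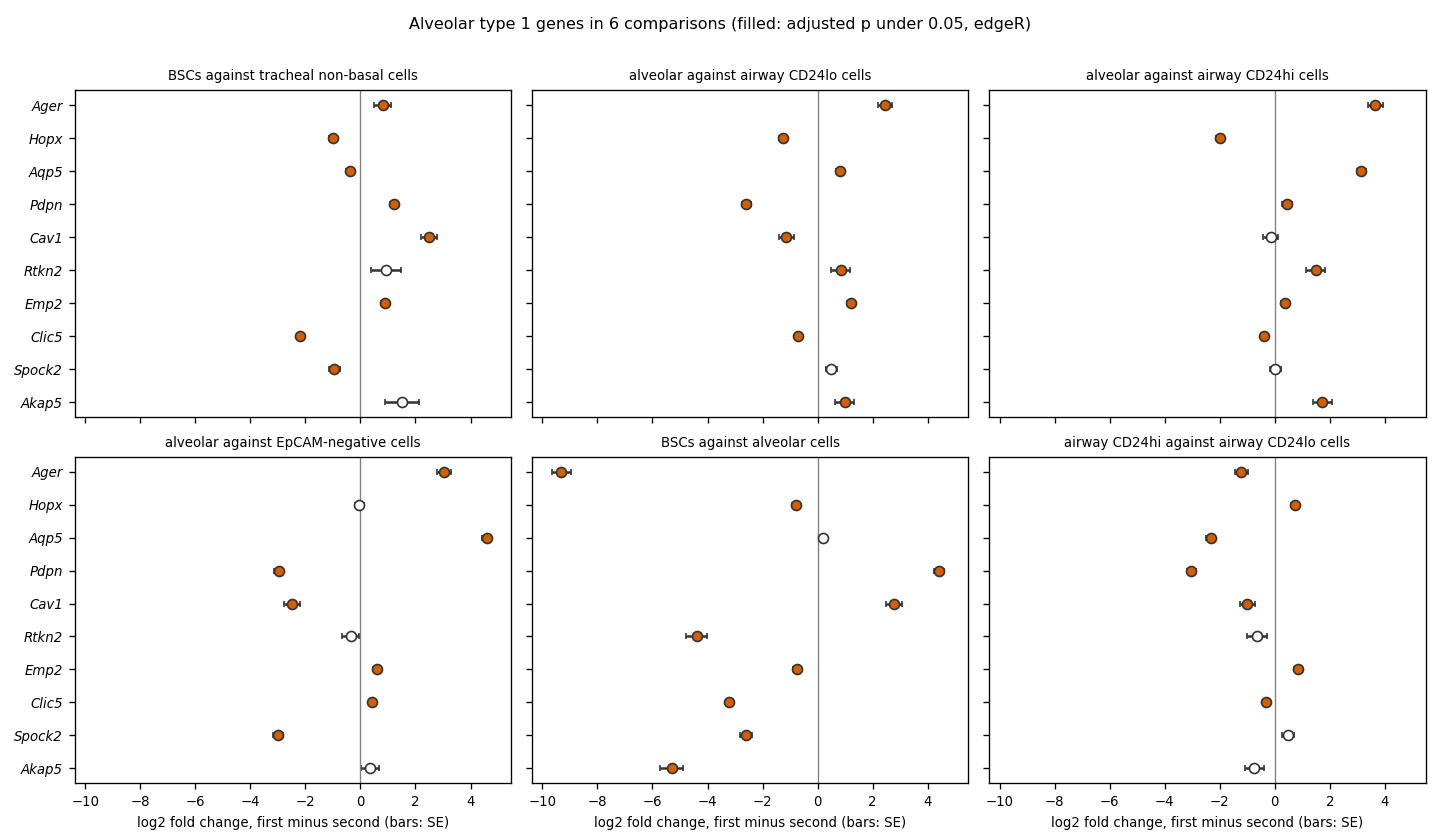
Log2 fold change of each of the 10 genes in each of the 6 comparisons, as the first population minus the second, with bars for the SE of the edgeR fit and filled points for genes called at an adjusted p under 0.05. *Pdpn* and *Cav1* lie to the right of 0 in both comparisons of BSCs, and *Ager* lies at -9.32 in BSCs against alveolar cells.

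The libraries of mouse 4 stood apart for genes of the vessel wall, most of all in the airway gates. In those gates they also did so, in part, for genes of other cell types. Over 10 endothelial genes, the summed level in airway CD24hi cells was 438 RPKM in mouse 4 against 180 and 106 RPKM in mice 5 and 6, and in airway CD24lo cells 550 against 217 and 195 RPKM. The EpCAM-negative libraries held 512, 415 and 323 RPKM and the alveolar libraries 90.5, 179 and 118 RPKM. In BSCs the sum was 0.714 to 0.901 RPKM, with *Cdh5*, *Emcn* and *Cldn5* at 0, and in tracheal non-basal cells 6.01 to 7.73 RPKM. In airway CD24hi cells mouse 4 held the highest of the 3 levels for 10 of the 10 endothelial genes and for 9 of the 10 type 1 genes, against 54.8% of 12119 genes compared. In airway CD24lo cells it did so for 9 endothelial and 8 type 1 genes, against 39.0% of those genes. In EpCAM-negative cells it also did so for 9 endothelial and 8 type 1 genes, against 31.6%. In alveolar cells it did so for 0 endothelial genes and 1 type 1 gene, against 36.5%, and all 10 endothelial genes were lowest in mouse 4 there. Fibroblast genes were also highest in mouse 4 for 6 of 8 in each airway gate, with median ratios to the mean of mice 5 and 6 of 2.12 in CD24hi and 1.45 in CD24lo cells. Their summed level was 113, 65.2 and 42.5 RPKM in CD24hi cells and 269.7, 212 and 198 RPKM in CD24lo cells of mice 4, 5 and 6. The 6 ciliated cell genes summed to 957, 413 and 402 RPKM in the CD24lo libraries of the same mice.

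The ratio of mouse 4 to the mean of mice 5 and 6 had a median of 2.95 over the endothelial genes and 1.52 over the type 1 genes in airway CD24hi cells, and of 3.05 and 1.44 in airway CD24lo cells. For CD24hi and CD24lo cells in that order, the ratio was 2.49 and 2.35 for *Rtkn2*, 2.01 and 2.64 for *Akap5*, 2.30 and 1.20 for *Ager* and 1.57 and 2.11 for *Cav1*. It was 1.59 and 0.856 for *Aqp5* and 1.39 and 0.894 for *Pdpn*. In the other lung gates the median ratio of the type 1 genes was 1.13 in EpCAM-negative cells and 0.903 in alveolar cells. That of the endothelial genes was 1.39 and 0.588 in the same order. Of the 11 type 2 genes, 9 were highest and 1 lowest in mouse 4 in CD24hi cells, with a median ratio of 1.25. In CD24lo cells 5 were highest and 5 lowest, with a median of 1.03. The part of endothelial, fibroblast, type 2 or ciliated cell RNA in the levels of the type 1 genes was not tested. When both airway libraries of mouse 4 were left out, a choice made after seeing the data, *Spock2* was called higher in alveolar than in airway CD24lo cells (0.78, adjusted p = 0.000879). Between the airway gates *Rtkn2* (-0.67, adjusted p = 0.0376) and *Spock2* (0.55, adjusted p = 0.0155) were then called and *Clic5* was not (0.0942).

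**Figure D4:**
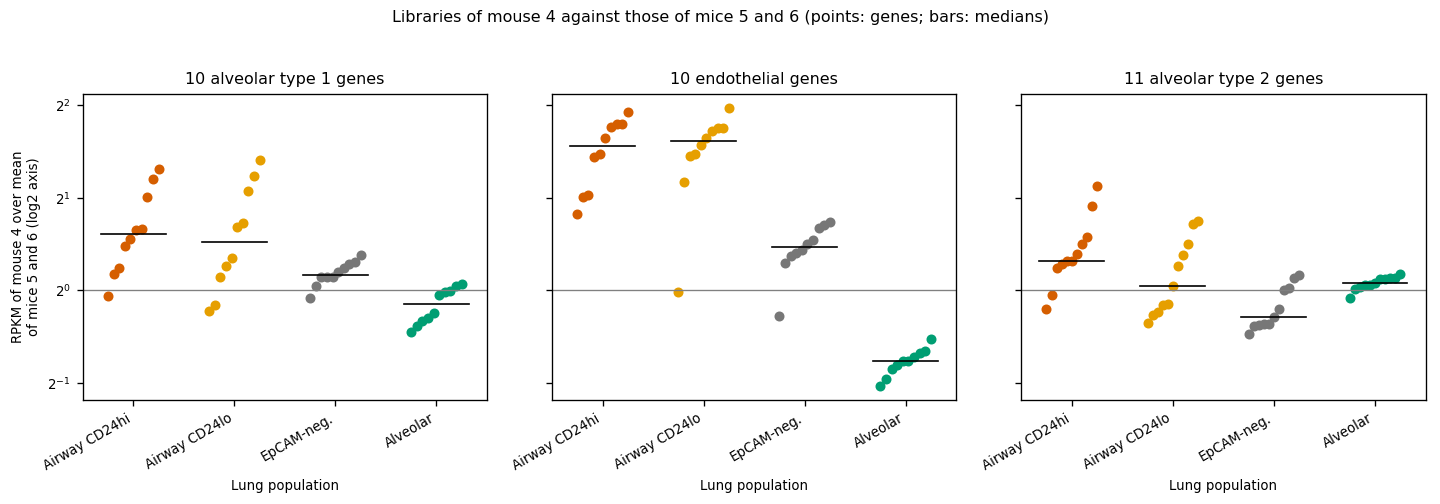
Ratio of the level in mouse 4 to the mean of mice 5 and 6 in the 4 lung populations (log2 axis), with a point for each of the 10 type 1, 10 endothelial and 11 type 2 genes and bars for medians. In both airway populations the endothelial genes have medians of 2.95 and 3.05 and the type 1 genes are spread between 0.856 and 2.64, while in alveolar cells the type 1 genes have a median of 0.903.

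The levels in the other lung gates were also set against those in alveolar cells. For the 11 type 2 genes, the airway CD24hi mean was 0.628% to 10.7% of the alveolar mean, with a median of 1.62%. In airway CD24lo cells the median was 3.97% (2.48% to 21.1%) and in EpCAM-negative cells 0.505% (0.407% to 3.00%). The type 2 genes were all far higher in alveolar cells, which fixes low percentages for them, so their median is only a reference. Of the type 1 genes, *Ager* was nearest to it in both airway populations. It was at 7.94% of its alveolar level in airway CD24hi cells and 18.4% in airway CD24lo cells, within the type 2 range in both. In EpCAM-negative cells *Ager* was at 12.2%. *Aqp5* was at 11.3%, 56.5% and 4.18%. *Akap5* was at 30.2%, 50.2% and 78.1% and *Rtkn2* at 35.7%, 55.5% and 127%. *Hopx* was at 396%, 240.02% and 103%. For the 10 endothelial genes the medians were 188%, 229.9% and 298% of the alveolar level in the same 3 populations.

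**Figure D5:**
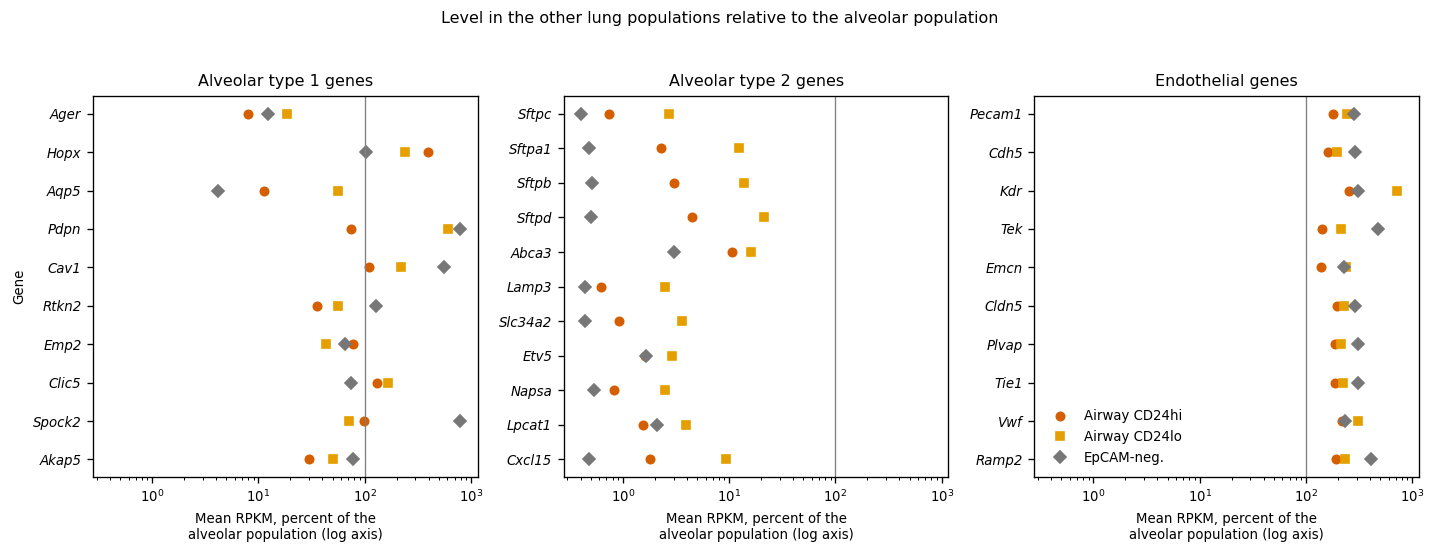
Mean level in airway CD24hi, airway CD24lo and EpCAM-negative cells as a percentage of the alveolar mean (log axis), with 1 row for each of the 10 type 1, 11 type 2 and 10 endothelial genes and a line at the alveolar level. *Ager* lies nearest to the type 2 median in both airway populations, and *Spock2*, *Pdpn* and *Cav1* reach 793%, 783% and 559% in EpCAM-negative cells.

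A further 27 genes reported as type 1 cell genes were counted in the same comparisons, with all 27 tested. Against airway CD24hi cells 19 were higher and 7 lower in alveolar cells, against EpCAM-negative cells 16 and 9, and against airway CD24lo cells 11 and 7. Over all genes the calls were 31.4% and 30.5%, 29.2% and 32.7%, and 24.2% each way, in the same order. For the 27 the median log2 fold changes were 1.16, 0.92 and 0.06. *Egfl6*, a secreted matrix protein, was at 273 ± 3.68 RPKM in alveolar cells, with log2 fold changes of 7.503, 7.82 and 5.29 in these comparisons (adjusted p at most 2.05e-12). Over the list of 11 genes that holds the surfactant protein genes, the medians were 5.95, 7.63 and 4.65 in the same order. The differences of *Egfl6* were thus nearer to the medians of that list than to those of the 27 genes. Which cell type the *Egfl6* RNA came from was not tested. *Radil*, a Rap effector in cell adhesion, was higher than in both airway populations (4.77 and 4.21, adjusted p = 6.71e-11 and 7.02e-10). *Sema3e*, a semaphorin (-5.12, adjusted p = 1.72e-12), and *Sec14l3*, a lipid-binding protein of airway cells (-4.63, adjusted p = 1.83e-13), were lower in alveolar than in airway CD24hi cells. *Cldn18*, a tight junction claudin, was higher than in EpCAM-negative cells (4.69, adjusted p = 6.4e-11). *Timp3*, a metalloproteinase inhibitor, was lower than there (-3.54, adjusted p = 1.42e-10). *Scnn1g*, a subunit of the epithelial sodium channel, was lower in alveolar than in airway CD24lo cells (-3.62, adjusted p = 1.85e-10), where it was at 54.6 ± 12.9 RPKM.

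In BSCs, 6 of the 27 were higher and 13 lower than in alveolar cells, against 30.5% and 35.6% of all genes, with a median log2 fold change of -0.46. *Cldn18* had 0 reads in all 3 BSC libraries against 310.1 ± 15.4 RPKM in alveolar cells. It was at least 11344-fold lower in BSCs, with 3 reads in a library, at most 0.0273 RPKM, taken as the limit. *Limch1*, an activator of non-muscle myosin (-9.58, adjusted p = 1.69e-14), *Radil* (-9.57, adjusted p = 3.99e-13) and *Ndnf* (-7.57, adjusted p = 5.8e-14) followed. Against tracheal non-basal cells 12 of the 27 were higher in BSCs and 7 lower, against 21.9% and 26.2% of all genes, with a median of 0.21. *Limch1* was lower there (-5.34, adjusted p = 1.09e-10) and *Igfbp2*, an insulin-like growth factor binding protein, higher (3.69, adjusted p = 5.4e-08). Between the airway gates 6 were higher in CD24hi cells and 16 lower, against 27.8% and 27.2% of all genes, with a median of -0.75. *Scnn1g* was lower (-2.94, adjusted p = 2.42e-09) and *Sema3e* higher (2.13, adjusted p = 2.32e-08).

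Regulators of the type 1 cell programme were counted over 11 genes. In alveolar cells 7 were higher and 4 lower than in airway CD24hi cells, 4 and 4 than in airway CD24lo cells, and 3 and 5 than in EpCAM-negative cells. With 11 genes, these counts stand beside 31.4% and 30.5%, 24.2% each way, and 29.2% and 32.7% of all genes. *Nkx2-1*, the homeodomain factor of lung and airway epithelium, was at 191 ± 11.3 RPKM in alveolar cells and at 2.63 ± 0.493 RPKM in EpCAM-negative cells (log2 fold change 6.18, adjusted p = 4.08e-16). In BSCs 6 were higher and 3 lower than in alveolar cells, against 30.5% and 35.6% of all genes. *Gata6*, a zinc finger factor (-2.57, adjusted p = 1.32e-11), and *Nkx2-1* (-1.92, adjusted p = 2.92e-11) were lower and *Klf4*, a Krüppel-like factor (2.43, adjusted p = 6.19e-10), was higher. Against tracheal non-basal cells 7 of the 11 were higher in BSCs and 4 were not called, against 21.9% of all genes higher. Between the airway gates 2 were higher in CD24hi cells and 4 lower, against 27.8% and 27.2% of all genes. The medians were 0.30, 0.19 and -0.07 for the 3 alveolar comparisons, then 0.20, 0.37 and -0.05.

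The genes whose log2 levels followed each member most closely over the 18 libraries were found among 12119 genes by Pearson's correlation, as a description. The points are 3 mice a gate, with libraries that share mice, so the values reflect 6 population levels above all. *Ager* was closest to *Nckap5* (0.991), *Adgrf5* (0.989) and *Esam* (0.987), the last of which encodes an adhesion molecule of endothelium. Here the mean of *Esam* was highest in alveolar cells, at 96.9 RPKM against 35.2 RPKM in EpCAM-negative cells. *Rtkn2* and *Akap5* were both close to the endothelial and myeloid surface gene *Ly6c1* (0.990 and 0.981) and to each other (0.979). *Pdpn* was closest to *Efna5* (0.986), an ephrin, and *Sox5* (0.979), *Aqp5* to *Tmem79* (0.983) and *Itpr3* (0.978), and *Spock2* to *Mettl24*, *Bdkrb1* and *Syt11* (0.983 each). *Hopx* was close to *Ankrd45* (0.975) and *Ccdc24* (0.973). *Clic5* was closest to the potassium channel gene *Kcnk2* (0.972), *Emp2* to *Dok4* (0.952) and *Cav1* to *Evl* (0.948). Of the 45 pairs of the 10 genes, 4 had a correlation over 0.8 and 21 lay under 0, with a median of 0.13. The lowest value was that of *Aqp5* with *Spock2* (-0.84).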

How the data were processed

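Reads were single-end and 100 bases long. Per the labels and the study's methods, the authors made the basecalls with bcl2fastq 1.8.4, aligned the reads to mm10 with Rsubread and counted them for Entrez genes of its built-in RefSeq annotation with featureCounts. The deposited values are raw counts, with a length for each gene, in 1 file a library. The strand setting is not given in the sources used here. A table of the whole series with the same counts was not used.

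The counts were tested with edgeR 4.0.16 (R 4.3.3), the quasi-likelihood test on 1 fit of all 18 libraries with a mean per population. Genes over 0.2 CPM in at least 3 libraries were kept, with TMM scaling and Benjamini-Hochberg adjustment. RPKM was computed from the counts, the deposited lengths and the TMM-scaled library sizes. Alternatives were RLE size factors, library size alone, CPM over 1, no filter, DESeq2 1.42.0, limma voom 3.58.1 (the tool of the study), the 6 libraries compared alone, the mouse as a block and each library left out. After seeing the data, both airway libraries of mouse 4 were left out. Levels were also computed on library size alone and as TPM.

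Gates of 1 mouse share its number in the labels, which pairs them. Deviations of same-mouse libraries from their group means correlated by -0.06 to 0.34 over 21 pairs of libraries, 3 for each of 7 pairs of populations. Over 0.1 were 5 of them, the 3 pairs of BSCs with non-basal cells and 2 of the 3 between the airway gates. Replicates differed beyond sampling noise (chi-square per degree of freedom at least 3.50 in 18 pairs).

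The 10 genes and all lists were chosen with earlier results of these data known. All 10 are named in every comparison. Of the other lists at most 4 genes a comparison are named, those with the largest absolute log2 fold change among genes called and with a mean of at least 5 CPM, besides all caveolar genes. The 3 genes most like each member were taken by Pearson's correlation of log2 CPM with a prior count of 2. Symbols were found for 25275 of 27179 identifiers. Gene positions are from a RefSeq gene table of GRCm38.p6, and strands and exon overlaps are from the GENCODE annotation of GRCm38.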

Additional observations from a re-analysis of the deposited data

How the results depend on the processing

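The number of the 10 genes called stayed within 1.5 times the reported one under every alternative: 6 to 10 for BSCs against non-basal cells, 7 to 10 and 6 to 8 for alveolar against airway CD24lo and CD24hi cells, 6 to 8 against EpCAM-negative cells, 8 to 10 for BSCs against alveolar cells and 6 to 9 between the airway gates. Among the repeats of single fold changes, 789 kept direction and call, 47 lost the call, 25 gained it and 9 changed sign, and none of those 9 was called. Sign changes concerned 3 values. In alveolar against airway CD24hi cells, *Spock2* went from 0.02 to -0.29 on library size alone and to -0.059 with the 6 libraries alone, and ranged from -0.15 to 0.23 with single libraries left out. *Cav1* there went from -0.14 to 0.10 without both airway libraries of mouse 4, ranged from -0.40 to 0.10 with single libraries left out, and lay between -0.46 and 0.10 over all alternatives. *Hopx* in alveolar against EpCAM-negative cells ranged from -0.23 to 0.083 with single libraries left out and over all alternatives. With the mouse as a block, *Akap5* in BSCs against non-basal cells (1.51) and *Spock2* in alveolar against airway CD24lo cells (0.51) and between the airway gates (0.48) gained a call, and the block changed no other call of the 10 genes. In fits of the 6 libraries compared, *Rtkn2* in BSCs against non-basal cells (0.0412) and *Akap5* in alveolar against EpCAM-negative cells (0.0302) gained a call, and *Rtkn2* (0.0877) and *Akap5* (0.0578) in alveolar against airway CD24lo cells lost it. The cause of these changes was not tested.

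On library size alone the median log2 fold change over the genes tested shifted to 0.31 in BSCs against non-basal cells, -0.29 in alveolar against airway CD24hi cells, -0.19 against EpCAM-negative cells, 0.29 in BSCs against alveolar cells and 0.21 between the airway gates. The higher share of all calls then went from 45.5% to 72.2%, 50.8% to 34.6%, 47.2% to 37.3%, 46.1% to 64.5% and 50.5% to 68.4% in the same order. Of the 60 mean levels, 18 moved by more than 1 SD on library size alone. On TPM 50 did, but TPM is another unit with another total, so this count cannot show whether a level is stable. Read counts of *Rtkn2* and *Akap5* in the trachea limit what can be told there.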
